A study of Mus musculus with 15 samples.

Results

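The Notch pathway was followed through 35 genes that encode its receptors, ligands, modifying enzymes, nuclear complex, targets and inhibitors. They were found by gene symbol in a pair of RNA-seq tables, and all 35 were listed both among the 26835 genes of the *Lhx6* table and among the 25714 genes of the *Mtg8* table (28391 genes in either table). They comprised 4 receptors, 5 canonical ligands, 3 non-canonical ligands, 3 glycosyltransferases, 4 genes of ligand and receptor processing, 4 genes of the nuclear complex, 6 targets and 6 genes of feedback and inhibition. The cells were migrating interneurons of the medial ganglionic eminence (MGE), marked with YFP and sorted from mouse cortex at E14.5, with 1 embryo per library and a mixed C57BL/6/CBA background. The 4 *Lhx6* control embryos were Lhx6+/+ and the 5 *Lhx6* mutant embryos were Lhx6-/-. The 3 *Mtg8* control embryos were Mtg8+/+ and the 3 embryos labelled *Mtg8* mutant were Mtg8-/-. Controls carried Nkx2-1-Cre Tg and R26R-YFP fl/fl, and mutants carried Nkx2-1-Cre and R26R-YFP fl/fl. YFP therefore marks cells by their history of Nkx2-1-Cre activity. The *Lhx6* allele, by contrast, is a germline loss of function, present in every cell of the embryo. The study also calls its Mtg8-/- mice germline mutants. The question asked of these genes was which of them differed between mutant and control cells in each table. The study's methods call the mutants littermates of the controls, but 4 of the 5 *Lhx6* mutants (1, 2, 3 and 5) and 2 of the 3 labelled *Mtg8* mutants (3 and 4) carry a code in their library names that no control of their table carries. What the code marks is not given in the sources used here.

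Notch is a receptor that is cut when a ligand on a neighbouring cell pulls on it, which frees an intracellular domain that enters the nucleus. There it joins the DNA-binding protein RBPJ and a Mastermind coactivator and switches on repressors of the HES and HEY families, which hold neural progenitors back from becoming neurons. In the embryonic telencephalon, progenitors of the ventricular zone use this pathway to delay differentiation, and newborn neurons present the ligands. MTG8 (also called ETO), encoded by *Runx1t1*, is a corepressor that has been described in RBPJ repressor complexes, and LHX6 is a LIM-homeodomain factor that sets the identity of MGE interneurons.

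Depth ranged from 12218422 to 22053032 reads per library. *Lhx6* had 236 to 495 normalized counts in *Lhx6* mutants against 5812 to 8441 in their controls. *Runx1t1* had 12249.8 to 13934 normalized counts in the 3 libraries labelled *Mtg8* mutant against 7938 to 10264.5 in their controls, so it was not lower there. A count over the whole gene does not show whether an exon is lost, and these libraries are named by their label throughout. The summed normalized count of 7 MGE interneuron markers, *Lhx6* among them, was 28287 to 32259 in *Lhx6* controls and 7928 to 17828 in mutants, and 43233 to 45854 in *Mtg8* controls and 26944 to 28956 in the labelled mutants. In *Lhx6* mutants *Sst*, *Lhx6* and *Satb1* were called lower, while *Nkx2-1* (log2 0.21) and *Maf* (log2 0.52) were not called. The sum of 7 markers of interneurons as a class overlapped between the groups in both tables. It was 19203 to 26631 in *Lhx6* controls and 23208 to 39466 in mutants, where *Dlx5* and *Dlx6* were called higher. In *Mtg8* controls it was 30467 to 34318, and in labelled mutants 2, 3 and 4 it was 21179, 18680 and 35962. Only labelled mutant 4 was thus not below every control. There *Dlx1* was lower without overlap (log2 -0.67) and the other markers overlapped, *Dlx2* with a fitted change above 0 (log2 0.99). None of the 7 was called in the *Mtg8* table. Genes of other cells were present in every library, among them those of red blood cells (4 markers, summed 1695 to 58166), pyramidal neurons (7 markers, 4998 to 19947) and radial glia (8 markers, 6651 to 17150). Markers of endothelial cells were low (8 markers, summed 23.9 to 298), with *Pecam1* present in every library at 21.3 to 89.1, and 7 of the 8 for *Lhx6* and 6 of the 8 for *Mtg8* were at 0 in some library. In such bulk samples, fewer cells of a type and less RNA per cell cannot be told apart.

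In control cells the pathway was unevenly expressed. Levels were compared between genes as normalized count per kilobase of exon, with the deposited gene lengths. Among receptors *Notch2* was the highest in *Lhx6* controls (26.06 ± 5.18 per kb, SD, n = 4), followed by *Notch1* at 9.43 ± 0.775 per kb. In *Mtg8* controls that order was turned, with *Notch1* at 13.9 ± 1.96 per kb (n = 3) and *Notch2* at 7.88 ± 1.12 per kb. The other two receptors lay lower, *Notch3* at 3.76 ± 1.14 per kb and *Notch4* at 5.77 ± 0.987 per kb in *Lhx6* controls. On this scale the highest ligand genes exceeded every receptor gene. *Dll1*, an activating ligand, was the highest canonical ligand with 62.2 ± 12.6 per kb in *Lhx6* controls and 98.2 ± 5.08 per kb in *Mtg8* controls. *Dner*, a neuronal non-canonical ligand, reached 358 ± 27.5 per kb in *Lhx6* controls and 508 ± 90.7 per kb in *Mtg8* controls.

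Further along the pathway, the highest mean level belonged to *Hes6*, a HES family member that acts against HES1 and favours neuronal differentiation. *Hes6* had 1487 ± 104 per kb in *Lhx6* controls and 539 ± 23.03 per kb in *Mtg8* controls, against 203 ± 38.7 and 66.2 ± 31.3 per kb for the classical target *Hes5*. In *Mtg8* controls the range of *Hes6* (515 to 561 per kb) lay within that of *Dner* (435 to 609.9 per kb), so that these did not differ beyond their spread. *Rbpj* led the nuclear complex with 84.0 ± 6.89 per kb in *Lhx6* controls and 154 ± 4.54 per kb in *Mtg8* controls. Of the Fringe enzymes, which add sugars to the receptors and so tune their response to ligands, *Rfng* was the highest in *Lhx6* controls (418 ± 45.9 per kb). In *Mtg8* controls *Mfng* (263 ± 32.7 per kb) and *Rfng* (242 ± 43.7 per kb) did not differ beyond their spread. *Adam10*, the protease that cuts the receptor once a ligand has bound, had 385 ± 13.97 per kb in *Lhx6* controls and 372 ± 41.8 per kb in *Mtg8* controls, and *Dtx3*, a Deltex family gene, had 440.0 ± 103 and 297 ± 78.7 per kb. At the other end, *Dll4* and *Heyl* had at most 13 reads in any *Lhx6* library.

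**Figure D1:**
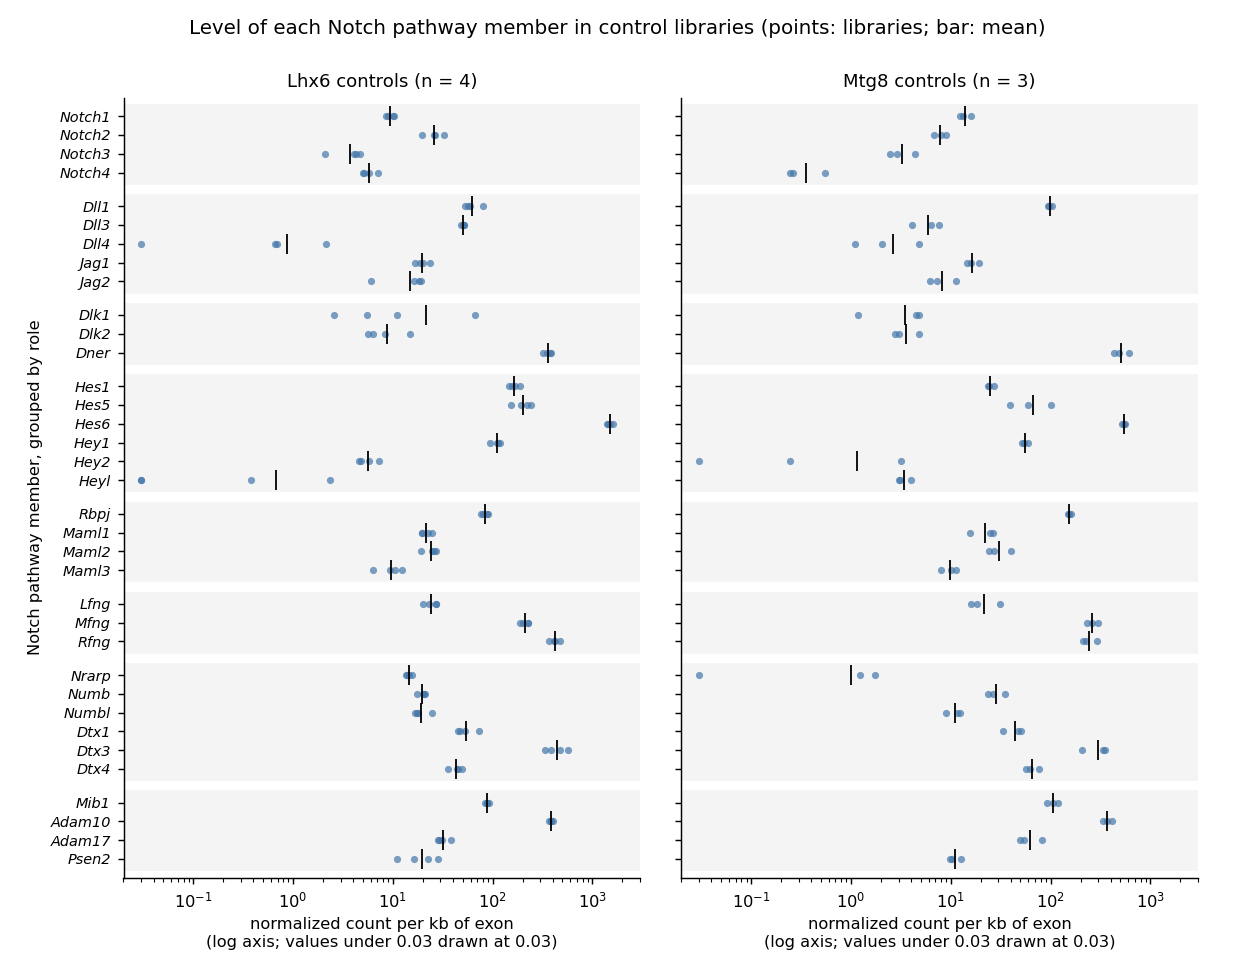
Level of each of the 35 Notch pathway genes in control libraries, as normalized count per kilobase of exon on a log axis, with *Lhx6* controls on the left and *Mtg8* controls on the right. Each point is a library and each black bar a group mean; *Hes6* (means 1487 and 539) has the highest mean on both sides, with *Dner* overlapping it in *Mtg8* controls, and the receptors lie between 0.243 and 32.4.

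In *Lhx6* mutant cells, a receptor gene and a coactivator gene rose, and no tested Notch pathway gene was called lower. *Maml3*, a Mastermind coactivator, was 3.26-fold higher, and *Notch2* was 1.99-fold higher (ratios of group means). These were the 2 members called among the 33 with enough counts to be tested (limma on log2(normalized count + 1), mean of at least 10, adjusted p under 0.05 over all 16727 genes). By the same rule 1.03% of all genes were called higher and 0.682% lower. No lower member was called, and the count of 0 compares with 2 at an unadjusted p under 0.05 (*Rfng* and *Dtx3*, where 5.63% of all genes were lower), with 0 by edgeR and with 0 by DESeq2, which called 1.59% of all genes lower. The unadjusted count of lower members fell to 0 without control 1, 3 or 4 or mutant 2, was 3 without control 2 and 5 without mutant 6, and was 1 without mutant 5, by edgeR and by DESeq2. At that unadjusted threshold 6 members were higher (7.11% of all genes were), and the median fitted log2 change was -0.01 over the members and -0.04 over all genes.

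The sequences directly upstream of *Notch2* and *Maml3* are shown because these are the called members, with that of *Hes5*, the textbook direct target, for comparison. All 3 are from RefSeq on GRCm38.p6, 5′ to 3′ on the gene's strand, up to the base before its first exon base or before its RefSeq start. Capitals mark matches on either strand to GTGGGAA, the core letters of an RBPJ site, to CACNAG, the N box that HES proteins bind, or to TAATTA, a core of LIM-homeodomain sites; no matches overlap.
*Notch2* (chr3:98013288-98013526, plus strand): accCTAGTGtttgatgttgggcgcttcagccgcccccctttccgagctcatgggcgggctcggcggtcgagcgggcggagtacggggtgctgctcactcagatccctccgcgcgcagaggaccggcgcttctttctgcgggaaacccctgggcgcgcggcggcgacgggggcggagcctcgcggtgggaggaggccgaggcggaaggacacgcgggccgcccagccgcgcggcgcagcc
*Maml3* (chr3:52105077-52105256, minus strand): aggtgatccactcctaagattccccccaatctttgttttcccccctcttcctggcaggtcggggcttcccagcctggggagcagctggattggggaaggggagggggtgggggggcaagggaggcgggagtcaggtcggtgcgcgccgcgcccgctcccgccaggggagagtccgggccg
*Hes5* (chr4:154960673-154960922, plus strand): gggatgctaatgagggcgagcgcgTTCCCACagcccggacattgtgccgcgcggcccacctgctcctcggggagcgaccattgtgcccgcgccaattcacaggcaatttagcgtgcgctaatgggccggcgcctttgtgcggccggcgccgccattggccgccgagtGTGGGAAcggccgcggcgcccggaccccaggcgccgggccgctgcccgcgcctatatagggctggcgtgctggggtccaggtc
The *Hes5* window holds GTGGGAA on each strand, at 83 to 77 and at 226 to 220 bases before the start, the *Notch2* window holds 1 N box and the *Maml3* window holds none of the 3 motifs. Over the 250 bases before the start, GTGGGAA was present in 5.42% of 32851 RefSeq windows, CACNAG in 36.7% and TAATTA in 4.84%. Of the 36 windows of the 28 members that matched by symbol, 4 held GTGGGAA (*Hes5*, *Hey2*, *Lfng* and *Psen2*), 14 held CACNAG and 0 held TAATTA. A match is a description of letters and not of binding.

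Among the receptors, *Notch2* (GRCm38, chromosome 3, 98013527 to 98150361, plus strand) had 212, 283, 349 and 279.6 normalized counts in controls 1 to 4. It had 684, 629, 550.4, 428 and 497 in mutants 1, 2, 3, 5 and 6. Every mutant thus lay above every control, with a log2 fold change of 0.99 (SE 0.20, adjusted p = 0.0206). The call was lost without control 1, 2 or 4 or mutant 2, where the adjusted p reached 0.0946, while the log2 fold change stayed between 0.86 and 1.10. It was also lost without limma's trend, with the replicate number as a block and with a dated or undated library name as a covariate. Over all alternatives the log2 fold change of *Notch2* lay between 0.84 and 1.16. Exons of *Gm42820* overlap those of *Notch2* on the same strand, so some reads of one may be counted for the other. The sum of 8 radial glia markers was 9583 to 11606 in controls and 15484, 13453, 9067, 11829 and 17150 in mutants 1, 2, 3, 5 and 6, above every control in 4 of 5. None of the 8 was called by limma. *Sox2*, which DESeq2 called, was the only one without overlap (1345 to 3900.4 in mutants against 841 to 1147, log2 0.95, adjusted p = 0.115). *Hopx* (log2 0.54), *Sox9* (0.51), *Nes* (0.44) and *Vim* (0.30) also had fitted changes above 0, and *Pax6* (0.0042), *Fabp7* (0.08) and *Slc1a3* (-0.02) lay near 0. The part of these markers in the rise of *Notch2* and *Maml3* was not tested. The other receptors were not called. *Notch1*, the receptor of neural progenitors, had 122 to 146 normalized counts in controls and 127 to 218 in mutants, with a log2 change of 0.23 (SE 0.22, adjusted p = 0.675). *Notch3*, best known from mural cells, had 16.8 to 37.5 against 12.11 to 58.1 (log2 -0.04, SE 0.53, adjusted p = 0.979). *Notch4*, best known from endothelium, had 40.2 to 57.6 against 25.9 to 107 (log2 0.42, SE 0.39, adjusted p = 0.664), and 4 of 5 mutants lay above every control.

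In the nuclear complex, *Maml3* (chromosome 3, minus strand) had 97.1, 109, 128 and 65.8 normalized counts in controls 1 to 4. In mutants 1, 2, 3, 5 and 6 it had 344, 378, 239, 430.1 and 239. Every mutant lay well above the highest control, and the log2 fold change was 1.69 (SE 0.26, adjusted p = 0.00377). Leaving out any 1 library kept *Maml3* called, with an adjusted p of at most 0.0171. The call was lost with the replicate number as a block and with a dated or undated library name as a covariate. Over all alternatives the log2 fold change of *Maml3* lay between 1.29 and 1.83. *Maml2*, a second Mastermind gene, had 163, 127, 172 and 180.4 in controls and 251, 205, 227, 267 and 339 in mutants. Its groups did not overlap either, but its log2 difference of 0.67 (SE 0.21) did not pass (adjusted p = 0.160), although DESeq2 called it. *Maml1* (109 to 136 in controls, 106 to 200.5 in mutants) and *Rbpj* (969 to 1157 against 875 to 1283) overlapped between the groups, and the log2 change of *Rbpj* was -0.01 (95% interval -0.32 to 0.30).

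Of the ligands, *Dner* stood apart from the rest. It had 1535, 1783, 1835 and 1694 normalized counts in controls and 3094, 2834, 3740.4, 2631 and 1964 in mutants. Mutant 6 lay just above the highest control and the other four far above it, with a log2 difference of 0.71 (SE 0.17) that missed the threshold (adjusted p = 0.0582). Without mutant 6 *Dner* was called (adjusted p = 0.00809), and with all libraries it was called by DESeq2 and, just past the threshold, with a pseudocount of 10 or a minimum mean of 50. *Jag1*, an activating ligand, had 97.1 to 138 in controls and 126 to 288 in mutants, with 4 of 5 mutants above every control and a log2 difference of 0.74 (SE 0.25, adjusted p = 0.217). *Dll1* had 221 to 339 in controls and 89.8 to 329 in mutants (log2 -0.53, SE 0.32, adjusted p = 0.514). *Dll3*, which acts inside its own cell against Notch signalling, spread from 58.2 to 239 in mutants around controls of 137 to 147 (log2 -0.03, SE 0.36, adjusted p = 0.97498). *Jag2* had 41.7 to 133 against 19.8 to 147. Counts of *Dlk1*, a secreted or membrane-bound non-canonical ligand, ran from 14.5 to 378 in controls and from 11.1 to 2773 in mutants.

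Counting groups without overlap gives 4 members higher, namely *Notch2*, *Maml2*, *Maml3* and *Dner*, and 0 lower, where 3.19% of all genes tested were higher and 3.03% lower in this way. DESeq2 on the recovered reads called the same 4 members, against 3.19% of genes called higher. The library names in the headings of the table begin with a date for mutants 1, 2, 3 and 5 and have none for mutant 6 and the 4 controls. What the date marks is not given in the sources used here. Set against the controls of the same name style, mutant 6 alone differed by 0.84 (*Notch2*), 1.29 (*Maml3*), 1.09 (*Maml2*) and 0.20 (*Dner*) on the log2 scale. Against controls 1 and 2, the only ones to share its code, it differed by 1.02, 1.21, 1.23 and 0.25, a comparison chosen after the data were seen. With name style as a covariate, a fit in which the effect is that of mutant 6 against the controls, 0 members were called by limma, and 3 were higher at an unadjusted p under 0.05. The part of name style in these results was not tested further.

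**Figure D2:**
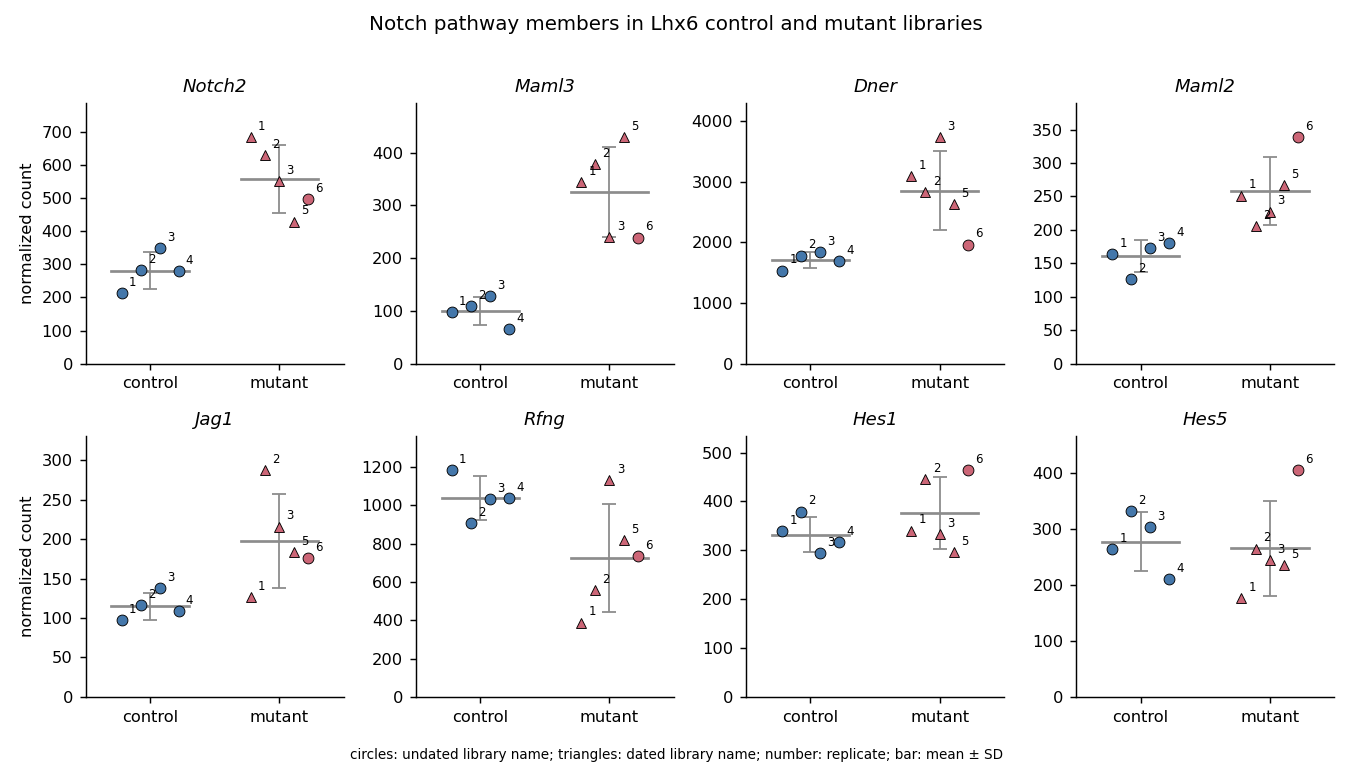
Normalized counts of 8 Notch pathway genes in each *Lhx6* control (blue) and mutant (red) library, with replicate numbers, circles for undated and triangles for dated library names, and grey bars for mean ± SD. *Notch2*, *Maml3*, *Dner* and *Maml2* show no overlap between the groups, whereas mutant values of *Hes1* (296 to 464) and *Hes5* (176 to 405) enclose or overlap those of the controls.

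The target genes of the pathway did not pass the test in either direction in *Lhx6* mutants. *Hes1* had 339, 379, 294 and 316 normalized counts in controls and 340.3, 446, 333, 296 and 464 in mutants, a log2 difference of 0.16 (SE 0.18, 95% interval -0.24 to 0.56, adjusted p = 0.723). *Hes5* had 264, 331, 303 and 209.5 in controls and 176, 265, 244, 235 and 405 in mutants, a log2 difference of -0.10 (SE 0.24, 95% interval -0.62 to 0.43, adjusted p = 0.8799). Both genes were highest in mutant 6, the library with the largest sum of radial glia markers (17150) and of 8 cell cycle markers (13034). The cell cycle sum was 6323 to 7982 in controls and 5538 to 8610 in the other mutants. The part of these markers in the values of *Hes1* and *Hes5* was not tested. *Hes6* was below every control in 4 mutants (1288 to 2154) and above every control in mutant 6 (3464), with controls at 2514 to 2936 and a log2 difference of -0.45 (SE 0.23, adjusted p = 0.432). *Hey1*, another repressor switched on by Notch, had 307 to 389 in controls and 149.7 to 384 in mutants (log2 -0.38, SE 0.26, adjusted p = 0.559). *Hey2* had 21.1 to 33.7 against 7.75 to 75.4. *Heyl* had a mean under 10 and was not tested.

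No enzyme or inhibitor gene passed the test in *Lhx6* mutants. All 3 Fringe genes had fitted changes below 0, from -0.60 (*Rfng*) to -0.35 (*Mfng*), as 53.4% of all genes did (46.6% were above 0). *Rfng* had 1185, 906, 1034 and 1038 normalized counts in controls and 389, 556, 1133, 821 and 735 in mutants. Only mutant 3 reached the control range, and the adjusted p was 0.352. *Numbl*, an adaptor protein that inhibits Notch, had 144 to 212 in controls and 181 to 379.9 in mutants (log2 0.54, SE 0.24, adjusted p = 0.376), and an exon of *Gm44641* overlaps it on the same strand. Its relative *Numb* had 69.1 to 82.0 against 63.3 to 132. *Dtx3* had 852 to 1455 in controls and 639 to 1030.1 in mutants (log2 -0.43, SE 0.20, adjusted p = 0.388), and *Dtx1*, which binds the receptor's intracellular domain, had 235 to 384 against 299.9 to 489. *Nrarp*, a target that in turn inhibits Notch, had 35.01 to 40.4 in controls and 15.5 to 45.8 in mutants, with 4 of 5 mutants below every control. The same held for *Dll1*, *Hes6*, *Mfng* and *Rfng*, so for 5 members in all, where 7.62% of all genes tested showed it. The exception was mutant 3 for *Rfng*. For *Nrarp*, *Dll1*, *Hes6* and *Mfng* it was mutant 6, the only mutant with an undated library name like the controls. For 3 members (*Notch4*, *Jag1* and *Maml1*) 4 of 5 mutants lay above every control, where 8.33% of all genes tested did. The ligand-activating ubiquitin ligase *Mib1* and the proteases *Adam10*, *Adam17* and *Psen2* had log2 changes between -0.15 and 0.23, none of them called.

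In the libraries labelled *Mtg8* mutant, no Notch pathway gene passed the test. Of the 32 members tested among 16132 genes, 0 were called higher and 0 lower by limma, by edgeR and by DESeq2, and limma called 0% of all genes in either direction. DESeq2 called 0.13% of all genes higher and 0.062% lower. At an unadjusted p under 0.05, 4 members were higher (*Notch2*, *Notch3*, *Hes1* and *Hey1*) where 3.06% of all genes were, and 1 was lower (*Heyl*) where 2.44% were. That count of 4 rests on single libraries and on the tool, since it was 1 without control 1, 2 without control 2, 11 without labelled mutant 2, 9 by edgeR and 8 by DESeq2. The 1 lower member was lost without control 2 or 4 or labelled mutant 2 or 3. The groups did not overlap for 6 tested members, all with the labelled mutants higher (*Notch2*, *Notch3*, *Dlk2*, *Hey1*, *Mfng* and *Psen2*), against 4.68% of all genes higher and 5.52% lower. The median fitted log2 change was 0.23 over the members and -0.01 over all genes, and 22 of the 32 were above 0 where 48.5% of all genes were (51.5% were below).

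**Figure D3:**
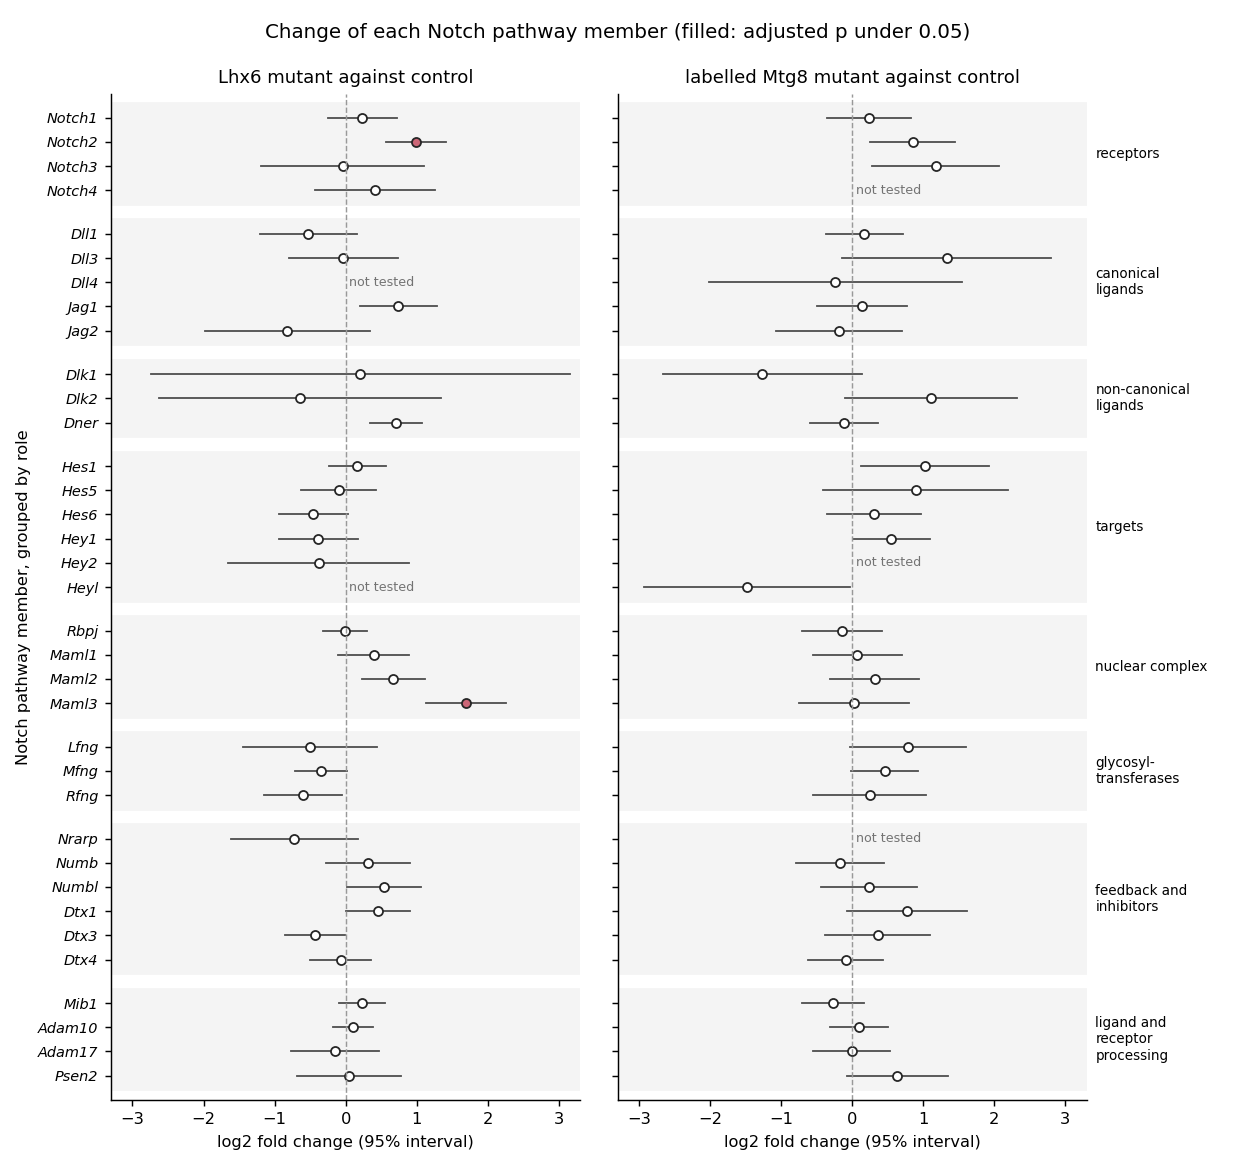
Fitted log2 fold change of every tested Notch pathway gene with its 95% interval, grouped by role, for *Lhx6* mutant against control (left) and labelled *Mtg8* mutant against control (right). Filled points mark an adjusted p under 0.05, which *Notch2* (0.99) and *Maml3* (1.69) reached on the left and no gene on the right.

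All 3 receptors that could be tested had fitted changes above 0. *Notch2* had 72.7, 85.3 and 96.8 normalized counts in controls 1, 2 and 4 and 145, 177 and 139 in labelled mutants 2, 3 and 4. Every labelled mutant exceeded every control, with a log2 difference of 0.85 (95% interval 0.25 to 1.45) that did not pass over all genes (adjusted p = 0.859). The difference was 0.87 within dated libraries (controls 1 and 2, labelled mutant 2) and 0.69 within undated ones (control 4, labelled mutants 3 and 4). *Notch3* had 20.1, 23.5 and 35.2 in controls and 37.4, 79.0 and 68.8 in labelled mutants, a log2 difference of 1.17 (95% interval 0.28 to 2.07, adjusted p = 0.859). Labelled mutant 2 lay just above control 4, and the within-style differences were 0.76 and 1.05. *Notch4* was too low for the test, with 2 to 4 reads in each control and 6, 11 and 25 reads in the labelled mutants, and its groups did not overlap. *Notch1* had 176 to 229 in controls and 180.1 to 313 in labelled mutants (log2 0.23, SE 0.27, adjusted p = 0.919). Endothelial markers summed to 42.5, 64.0 and 298 in controls 1, 2 and 4. In labelled mutants 2, 3 and 4 they summed to 58.9, 126 and 203. Mural markers summed to 202, 274 and 759 in these controls and to 278, 371 and 433 in these labelled mutants. Both sums overlapped between the groups, with control 4 the highest library. The mural sums of controls 1 and 2 lay below every labelled mutant. The part of these markers in the values of the receptors was not tested.

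The HES genes differed between the libraries labelled *Mtg8* mutant. *Hes1* had 49.2, 48.0 and 54.8 normalized counts in controls and 51.0, 125 and 174 in labelled mutants 2, 3 and 4. Labelled mutant 2 lay within the control range and the other two above it, with a log2 difference of 1.02 (SE 0.42, adjusted p = 0.859). Within dated libraries the difference was 0.07 and within undated ones 1.41. *Hes5* followed the same split, with 80.5, 53.3 and 136.9 in controls and 46.4, 285 and 287 in labelled mutants (log2 0.89, SE 0.60, adjusted p = 0.870). *Hes6* had 931 to 1014 in controls and 676, 1770.1 and 1471 in labelled mutants, again low in number 2 and high in the other two. *Hey1* alone among the targets showed no overlap, with 179, 194 and 168 in controls and 273, 215 and 314 in labelled mutants (log2 0.55, SE 0.25, adjusted p = 0.859). *Heyl* ran the other way at low counts, with 15.6, 16.0 and 20.5 against 3.398, 2.76 and 16.1 (log2 -1.48, SE 0.67, adjusted p = 0.859). *Hey2* had 0 to 15 reads per library and was not tested.

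The sum of 8 radial glia markers was 6930, 6651 and 8282 in *Mtg8* controls 1, 2 and 4 and 9180, 13298 and 8731 in labelled mutants 2, 3 and 4. The sum of 8 cell cycle markers was 6512 to 6652 in controls and 8322, 8002 and 7242 in labelled mutants 2, 3 and 4. Both sums were higher in all 3, and among these they were lowest in number 4. Of the radial glia markers, *Vim* (log2 0.81) and *Nes* (0.67) were higher without overlap. *Sox9* (0.64), *Fabp7* (0.58), *Pax6* (0.53), *Slc1a3* (0.21) and *Sox2* (-0.34, adjusted p = 0.867) overlapped between the groups. None of these was called by limma. The sum of 4 markers of oligodendrocyte precursors was 23.5, 6.40 and 272 in controls 1, 2 and 4 and 41.9, 199 and 492 in labelled mutants 2, 3 and 4, again low in number 2 and high in the other two, with control 4 high as well. Of these, *Pdgfra* (log2 2.05) and *Olig2* (log2 2.23) had an unadjusted limma p under 0.05 (adjusted p = 0.859 for both), where 3.06% of all genes were higher. *Olig1* (log2 1.51) did not pass that threshold. *Sox10* was too low for the test, with 0 to 9.78 normalized counts in controls and 0 to 3.68 in labelled mutants. Labelled mutant 2, which did not share the high *Hes1* and *Hes5*, had the largest sum of pyramidal neuron markers (19947 against 4998 to 12490.2 in controls). All 7 of these markers had fitted changes above 0, from 0.38 (*Neurod6*) to 1.16 (*Neurod2*). *Neurod2* was the only one without overlap (945 to 1051 in labelled mutants against 338 to 614), and it was not called (adjusted p = 0.582, limma). The part of these markers in the values of the HES genes was not tested.

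**Figure D4:**
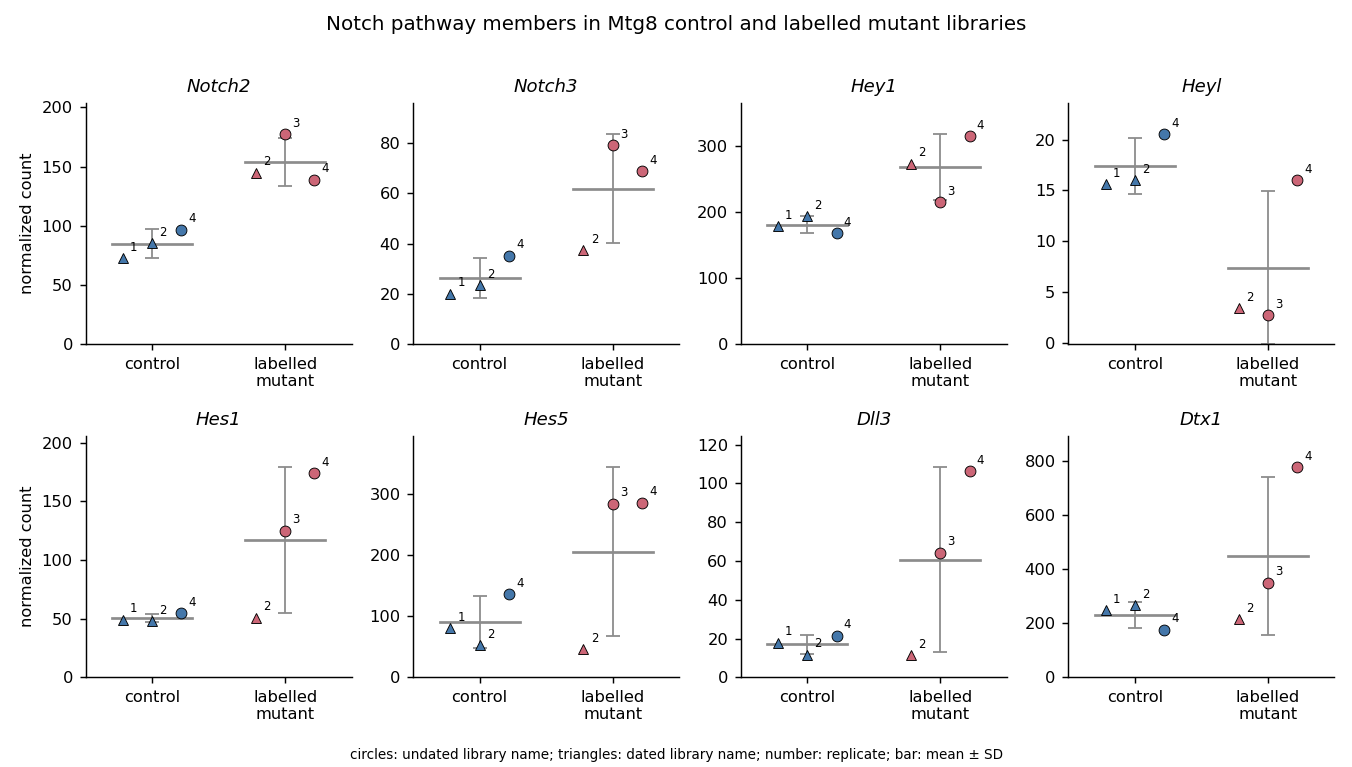
Normalized counts of 8 Notch pathway genes in each *Mtg8* control (blue) and labelled mutant (red) library, with replicate numbers, circles for undated and triangles for dated library names, and grey bars for mean ± SD. *Notch2*, *Notch3* and *Hey1* are higher in every labelled mutant, whereas *Hes1*, *Hes5*, *Dll3* and *Dtx1* are high in labelled mutants 3 and 4 and within or below the control range in labelled mutant 2.

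Among ligands, modifiers and inhibitors the same split recurred at *Dll3*, *Rfng*, *Numbl*, *Dtx1* and *Dtx3*, and none of them passed the test in the *Mtg8* table. *Dll3* had 17.9, 11.7 and 21.5 normalized counts in controls and 11.3, 64.3 and 106 in labelled mutants 2, 3 and 4 (log2 1.33, SE 0.68, adjusted p = 0.859). *Dll1* had 397 to 438 in controls and 360.3, 441 and 639 in the order 3, 2 and 4 (log2 0.17, SE 0.25, 95% interval -0.36 to 0.71, adjusted p = 0.938). *Jag1* had 83.8 to 111 against 84.1 to 119 (log2 0.14, SE 0.29, adjusted p = 0.956), and *Dner* had 2082 to 2918 against 1687 to 2714 (log2 -0.12, SE 0.22, 95% interval -0.60 to 0.36, adjusted p = 0.951). *Dlk2*, a non-canonical ligand, had 5.87 to 10.1 in controls and 10.7 to 22.98 in labelled mutants, and *Dlk1* had 6.71 to 27.4 against 4.53 to 9.17. *Mfng* had 660.3 to 845 in controls and 889 to 1290.3 in labelled mutants (log2 0.46, SE 0.22, adjusted p = 0.859), and *Psen2*, a catalytic subunit of gamma-secretase, had 43.0 to 54.8 against 61.2 to 93.7. *Dtx1* had 177 to 269 in controls and 216, 351 and 777 in labelled mutants 2, 3 and 4. *Dtx3* had 532 to 902 in controls and 528, 1120 and 1461 in labelled mutants 2, 3 and 4 (log2 0.36, SE 0.34, adjusted p = 0.8995). *Rfng* had 520.4 to 727 against 370.4, 737 and 1300.3 in that order (log2 0.25, SE 0.36, adjusted p = 0.942). *Numbl* had 77.3 to 107 against 79.3, 136 and 125 (log2 0.23, SE 0.31, adjusted p = 0.931). With *Hes1*, *Hes5* and *Hes6*, 8 members had labelled mutants 3 and 4 above every control and 2 not, a pattern described after the values were seen, where 10.9% of all genes tested had it.

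No gene of the nuclear complex was called in the *Mtg8* table, and all 4 overlapped between the groups. *Maml3* had 118, 106 and 83.1 normalized counts in controls and 134, 59.7 and 136 in labelled mutants, with a log2 difference of 0.02 (SE 0.36, 95% interval -0.75 to 0.80, adjusted p = 0.994). *Rbpj* had 1928, 2032 and 1935 in controls and 2659.9, 1178 and 1809 in labelled mutants, and *Maml2* had 161 to 263 against 206 to 339 (log2 0.32, SE 0.29, adjusted p = 0.896). The interval of *Maml3* ends at 0.80 here and begins at 1.13 for *Lhx6*, but the tables were normalized apart and the difference between them was not tested. For *Notch2* the fitted changes were 0.99 for *Lhx6* and 0.85 for *Mtg8*, the latter not called. The proteases *Adam10* and *Adam17* had log2 changes of 0.10 and -0.01.

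Another 35 genes of the pathway, such as the corepressors and acetyltransferases that act at RBPJ sites, were listed for comparison. Of these, 32 were tested in each table and limma called 0 in either direction in either table. At an unadjusted p under 0.05 the *Lhx6* table had 2 of them higher (*Crebbp* and *Spen*, where 7.11% of all genes were), and DESeq2 called *Crebbp*. *Crebbp*, a histone acetyltransferase recruited by Mastermind, had 4967 to 6625 normalized counts in *Lhx6* controls and 6275 to 9029 in mutants (log2 0.48, adjusted p = 0.133). At that threshold 2 were lower in the labelled *Mtg8* mutants (*Spen* and *Neurl1a*, where 2.44% of all genes were) and 0 were higher (3.06% of all genes were). *Spen*, the RBPJ corepressor also called SHARP, had 631 to 879 in *Mtg8* controls and 281 to 599 in the labelled mutants (log2 -0.75, adjusted p = 0.859), and 424.7 to 1156 in *Lhx6* mutants against 324 to 742 in their controls. Over the list the median fitted log2 change was 0.08 for *Lhx6* and -0.09 for *Mtg8*.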

How the data were processed

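RNA of YFP-positive cells from 15 single embryos was amplified with a low-input kit and sequenced as single reads of 75 bases. According to the labels and the study's methods, the authors used fastp 0.20.1 for trimming, STAR 2.7b for alignment to GRCm38.p6 and FeatureCounts 1.6.4 for counting, and left out sex-linked genes. The strand setting of the counting is not given in the sources used here. As deposited by the authors, the signal of a gene in a library is its read count over a DESeq2 size factor, which was computed within each table alone. Both tables also hold columns of the authors' own comparison (mean, log2 fold change, SE, Wald statistic, p and adjusted p), which were not used. In every library 100% of values were whole multiples of 1 read's value within 0.01, and these recovered reads gave the depth and the count tests.

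Each table was tested on its own with limma 3.58.1 (R 4.3.3), fitting log2(normalized count + 1) with a trend in the variance. Genes with a mean under 10 were left out, and p-values were two-sided, with Benjamini-Hochberg adjustment over all genes tested and a threshold of 0.05. Fold changes on this scale understate changes of low genes. Alternatives were pseudocounts of 0.5 and 10, no filter and a minimum mean of 50, TMM factors, limma without the trend, edgeR 4.0.16 and DESeq2 1.42.0 on recovered reads, the replicate number as a block, name style (a dated or undated library name) as a covariate, and each library left out. Levels per kilobase used the deposited exon length. Of the members, 33 were tested in the *Lhx6* table (not *Dll4* and *Heyl*) and 32 in the *Mtg8* table (not *Notch4*, *Hey2* and *Nrarp*). Full statistics were given to called members, to those with an unadjusted p under 0.05 or among the 3 smallest in either table, to the 4 receptors and to *Dll1*, *Dll3*, *Hes1* and *Hes5*, and the member with the highest level in each role was named. The members, lists and tests were chosen with earlier results of these data known. The test was run on simulated counts with known changes before use. The few embryos per group limit the precision, and reads carry no molecular identifiers. Promoter windows came from RefSeq (GRCm38.p6), in which *Dtx3*, *Dtx4*, *Hes1*, *Hey1*, *Heyl*, *Mfng* and *Mib1* were not matched. Some genes of the comparison and marker lists are not reported here.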

Additional observations from a re-analysis of the deposited data

Results flagged for a closer look

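Among 66 sets of values (33 members in *Lhx6* controls and in *Lhx6* mutants), 4 held 1 library far from the rest of its group by Dixon's test, and chance alone flags about 1 in 20. *Dlk1* had 378 normalized counts in *Lhx6* control 1 against 14.5 to 62.0 in the other controls, and 2773 in *Lhx6* mutant 2 against 11.1 to 59.6 in the other mutants. *Hey2*, a Notch target, had 75.4 normalized counts in *Lhx6* mutant 3 against 7.75 to 23.5 in the other mutants. *Numbl* had 212 normalized counts in *Lhx6* control 3 against 144 to 154 in the other controls.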

How the results depend on the processing

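In the *Lhx6* table the count of members called higher was 2, and it was 1 without limma's trend, 4 by DESeq2, 0 with a replicate block and 0 with name style as a covariate. Leaving out each library gave 1 to 3, with 1 (*Maml3*) without control 1, 2 or 4 or mutant 2. The cause was not tested, apart from the block resting on 3 pairs and the name-style fit on mutant 6. Counts of lower members and all counts for the labelled *Mtg8* mutants stayed at 0 under every alternative run. Replicate numbers are shared by both groups, but same-numbered embryos correlated by -0.154 to 0.0717 in the *Lhx6* table and by 0.138 and 0.159 in the *Mtg8* table (mean of the other pairs -0.0428). Labelled *Mtg8* mutant 2 shares its date and code with controls 1 and 2, but the labels do not say that a number pairs embryos, and with 2 pairs this was not settled. In the replicate block fit *Notch2* changed by 1.16 (adjusted p = 0.253) and *Maml3* by 1.498 (adjusted p = 0.175).

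Fitted changes of members that were not called changed sign in places. In the *Lhx6* table *Notch3* (-0.04) became 0.0099 with a pseudocount of 10, 0.16 by edgeR, 0.16 by DESeq2 and 0.71 with name style, and -0.29 to 0.25 over single libraries left out. *Dll3* (-0.03) became 0.13 by edgeR, 0.13 by DESeq2 and 0.64 with name style, and -0.22 to 0.28 over libraries left out. With name style *Dll1* became 0.35, *Hes5* 0.57 and *Hey1* 0.029, and *Hes5* ran from -0.26 to 0.036 over libraries left out. In the *Mtg8* table *Jag1* became -0.041 with the replicate block. Over libraries left out there, *Dll1* ran from -0.055 to 0.36, *Dner* from -0.26 to 0.083, *Maml3* from -0.18 to 0.41 and *Rfng* from -0.19 to 0.71. The cause of these sign changes was not tested. Of 556 alternative fits of the 17 genes with full statistics, 517 kept direction and side of the threshold, 25 changed sign, 9 lost a call (*Notch2* and *Maml3*) and 5 gained one (*Dner* and *Maml2*).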

Other observations

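The 2 sets of controls, both wild type at the targeted gene, differed from each other in the level of many genes, within the pathway and outside it. In RPM (reads over the library's total, scaled to a common depth), *Hes1* had 19.4 to 25.4 in the 4 *Lhx6* controls and 2.56 to 2.85 in the 3 *Mtg8* controls. *Dll3* had 9.09 to 9.85 against 0.63 to 1.12, and *Notch2* had 14.05 to 23.1 against 4.03 to 5.03. *Rbpj* ran the other way, with 64.1 to 76.4 against 100.5 to 108. Of the 30 members tested in both tables, 14 had every *Lhx6* control above every *Mtg8* control, where 30.4% of 15629 genes did, and 2 (*Rbpj* and *Adam17*) had the reverse, where 16.7% did. The tables were normalized apart and the difference was not tested.

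Single *Lhx6* mutants also differed from each other. *Hes6* ranged from 1288 normalized counts in mutant 1 to 3464 in mutant 6, and *Rfng* from 389 in mutant 1 to 1133 in mutant 3. Mutant 1 had the lowest mean correlation with the other libraries of its table (0.886), and without it *Maml3* and *Notch2* were still called.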
